A study of Mus musculus with 8 samples.

Results

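The chemokines and their receptors were followed in the colon of mice with colitis that did or did not also receive the gut bacterium Alistipes putredinis (AP). Members were the genes whose symbol begins with Ccl, Cxcl, Cx3cl, Ccr, Cxcr, Cx3cr or Ackr followed by a digit, and 57 of the 18806 genes listed met this rule. Of these, 35 encode ligands, 18 encode signalling receptors and 4 encode atypical receptors. Dextran sulfate sodium (DSS), an agent that damages the lining of the colon, was given to every mouse, in the group named DSS alone and in the group named DSS+AP together with AP. Each group had 4 libraries, each from the colon of a mouse drawn at random from its group. Neither healthy colon nor mice given AP alone were among the samples, so each comparison is of DSS+AP with DSS. Strain, age, sex, the doses and their timing are not given in the sources used here, and the labels do not say what the DSS group received in place of AP. Epithelium was present in every library. Summed colon epithelial markers were at least 13209 CPM in each DSS library and 23722 CPM in each DSS+AP library, CPM being counts scaled to a common library total. Of these markers Epcam averaged 1679 CPM in DSS and 1842 in DSS+AP. The tissue is otherwise taken from the sample titles.

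Chemokines are small secreted proteins that bind to glycosaminoglycans on vessel walls and matrix and guide leukocytes along their gradients. Most signal through receptors coupled to inhibitory G proteins, which leukocytes carry in combinations that differ by cell type. Atypical receptors bind chemokines without G protein signalling and take them up or transport them. In an inflamed colon, ligands of CXCR2 draw neutrophils, ligands of CCR2 draw monocytes, ligands of CXCR3 draw activated T cells, and CXCL13, CCL19 and CCL21 place B cells, T cells and dendritic cells in lymphoid follicles.

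The promoters of 4 CXC ligand genes of chromosome 5 are shown because 3 of them, Cxcl1, Cxcl2 and Cxcl3, fell in DSS+AP, while Cxcl10 did not pass the test. They are RefSeq sequences of build GRCm38.p6, from 250 bases before to 50 bases after the gene start, 5′ to 3′ on the strand of the gene. Capitals mark matches, on either strand, to the letters GGG, any 3 bases and TTCC, a motif of the kind that NF-κB factors bind, or to GAAA, any 2 bases and GAAA, a motif of the kind that interferon-response factors bind. The windows are chr5:90890995-90891294 (plus strand) for Cxcl1, chr5:90903649-90903948 (plus strand) for Cxcl2, chr5:90785851-90786150 (plus strand) for Cxcl3 and chr5:92348840-92349139 (minus strand) for Cxcl10.
Cxcl1: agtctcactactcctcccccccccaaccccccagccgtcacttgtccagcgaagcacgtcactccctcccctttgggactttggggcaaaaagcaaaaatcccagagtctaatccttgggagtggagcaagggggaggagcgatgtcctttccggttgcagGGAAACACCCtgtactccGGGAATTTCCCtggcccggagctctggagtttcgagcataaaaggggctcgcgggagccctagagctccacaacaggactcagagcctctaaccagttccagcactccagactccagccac
Cxcl2: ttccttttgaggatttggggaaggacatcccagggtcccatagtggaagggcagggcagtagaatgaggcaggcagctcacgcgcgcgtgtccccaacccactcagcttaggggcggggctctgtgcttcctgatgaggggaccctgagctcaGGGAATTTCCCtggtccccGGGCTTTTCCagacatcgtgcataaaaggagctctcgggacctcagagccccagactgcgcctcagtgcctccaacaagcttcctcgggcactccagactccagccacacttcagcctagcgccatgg
Cxcl3: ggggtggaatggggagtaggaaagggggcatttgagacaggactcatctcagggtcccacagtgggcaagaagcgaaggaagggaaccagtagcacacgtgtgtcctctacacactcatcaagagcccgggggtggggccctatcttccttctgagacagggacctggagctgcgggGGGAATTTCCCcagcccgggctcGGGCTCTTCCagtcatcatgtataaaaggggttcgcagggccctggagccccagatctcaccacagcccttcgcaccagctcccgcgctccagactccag
Cxcl10: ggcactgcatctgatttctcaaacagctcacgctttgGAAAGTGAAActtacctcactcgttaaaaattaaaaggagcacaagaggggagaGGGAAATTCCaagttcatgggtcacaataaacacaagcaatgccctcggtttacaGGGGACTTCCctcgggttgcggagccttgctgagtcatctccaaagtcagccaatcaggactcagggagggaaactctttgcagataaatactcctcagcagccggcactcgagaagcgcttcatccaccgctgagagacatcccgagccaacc

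In the Cxcl1, Cxcl2 and Cxcl3 windows 1 stretch matches the first motif on both strands, with the matches on the plus and minus strands overlapping. It begins at base -71 from the gene start in Cxcl1, at -97 in Cxcl2 and at -73 in Cxcl3. Each of these windows held 1 further match, which began at -89 on the minus strand in Cxcl1 and on the plus strand at -78 in Cxcl2 and -50 in Cxcl3. The Cxcl10 window held 2 matches on the plus strand, at -159 and -104, and among these 4 windows it was the one with the interferon-response motif, at -213. The window of Cxcl9, which did not pass the test either, is not shown. It held neither the NF-κB motif nor the interferon-response motif. Over the family, 43 of 57 members had a promoter in the RefSeq table, with 50 windows in all. Of the 50 windows, 9 (18%) held the NF-κB motif, against 5.56% of all 32851 windows of the same length. These 9 belonged to Cxcl1, Cxcl2, Cxcl3, Cxcl10, Ccl1, Ccl9, Ccl20, Ccr3 and Ccr6, of which Cxcl10 and Ccl9 did not pass the test between groups and Ccl1 and Ccr3 were too low to be tested. The interferon-response motif was in 3 windows (6.0%), those of Cxcl10, Cxcl14 and Ccl19, against 3.44% of all windows. TATAAA, the letters of a TATA box, searched on the plus strand only, was in 12 windows (24.0%) against 8.32% of all windows. A match describes the letters and not a bound site.

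The 8 libraries held from 16089081 to 17104290 estimated counts, so that 3 counts, taken as the floor of detection, corresponded to 0.167 to 0.186 CPM, for counting error only. Principal components of the 8 libraries were taken over the genes that varied most between them. The first held 73.2% of the variance of those genes. On it DSS replicate 2 (3.26) and DSS+AP replicate 2 (-0.0995) lay nearer each other than either lay to the rest of its group. DSS replicate 4 held pancreatic acinar transcripts, with a summed 5220 CPM for the list against 43.0 to 54.5 CPM in the other DSS libraries. Markers of several cell types moved with the groups. All 7 B cell markers, 7 of 7 fibroblast markers, 5 of 5 blood endothelial markers, 4 of 4 lymphatic endothelial markers, 8 of 9 macrophage markers, 6 of 7 smooth muscle markers and 4 of 6 dendritic cell markers fell in DSS+AP (edgeR adjusted p under the threshold of 0.05). Of 8 colon epithelial markers 3 rose and none fell, and none of 4 plasma cell markers or 4 adipocyte markers passed the test. Of all genes tested, 20.4% fell and 8.84% rose by the same rule. Summed over each list, the levels did not overlap between groups for macrophages, dendritic cells, fibroblasts, smooth muscle, both endothelia and lymphoid tissue organising genes. Each of these had an exact two-sided permutation p of 0.0286, the smallest that 70 assignments of 4 and 4 libraries allow, and 0.0654 after Benjamini-Hochberg adjustment over 16 lists. In bulk tissue, fewer cells of a type and less RNA per cell cannot be told apart. The sample titles do not say which stretch of the colon was taken. Sums of a posterior Hox list ran from 52.4 to 195 CPM in DSS and from 14.6 to 82.3 CPM in DSS+AP. None of its 5 tested genes passed the test (0 of 5). The part of these shifts and of the Hox levels in the results on chemokines was not tested.

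**Figure D1:**
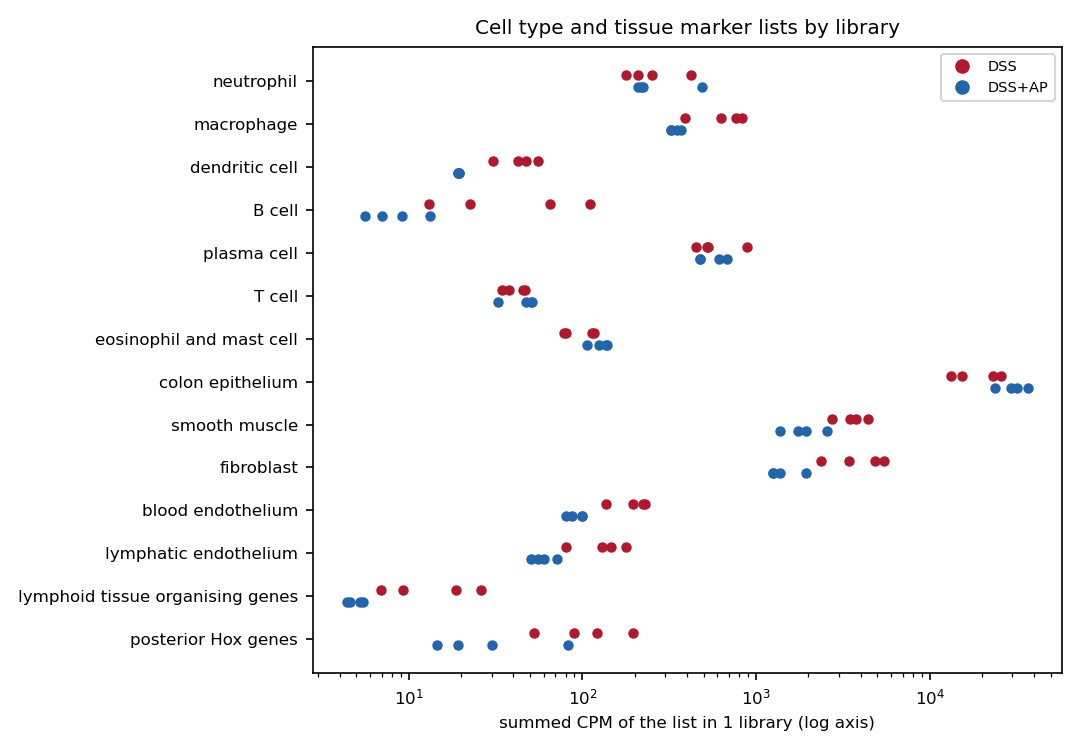
Summed level of each cell type's marker list in each library, in CPM on a log axis, with 1 point per library, red for DSS and blue for DSS+AP. The fibroblast sums of the 4 DSS libraries lay between 2356 and 5475 CPM and those of the 4 DSS+AP libraries between 1260 and 1950 CPM, whereas the T cell sums of the groups overlapped.

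Most of the family was lower in mice that received AP. Of the 57 members, 47 had enough counts to be tested (at least about 10 counts in 4 libraries), and 31 of them fell in DSS+AP, while 1, Ccl25, rose and 15 did not pass the test (edgeR quasi-likelihood F test, two-sided, Benjamini-Hochberg adjusted p under 0.05). Across all 14578 genes tested, 20.4% fell and 8.84% rose by the same rule. The fall was at least 2-fold for 26 members, against 11.7% of all genes. In 29 members every DSS+AP library lay below every DSS library, against 19.5% of all genes, and in none did every DSS+AP library lie above (10.8% of all genes). The median log2 fold change of the 47 was -1.22, with a median over all genes tested of 0.02. Of the tested members, 11 reached the minimum count in all 4 DSS libraries but in fewer DSS+AP libraries, so they entered the test through the group where they are high: Cxcl1, Cxcl2, Cxcl3, Cxcr2, Ccl3, Ccl4, Ccl19, Ccl20, Ccr6, Ccr7 and Cxcr5. Among the other 36 tested members 21 fell, 16 of them at least 2-fold, 1 rose and 14 did not pass, the groups were apart in 19, and the median log2 fold change was -0.91. Ligands and receptors shared the direction: 20 of 30 tested ligands, 8 of 13 tested receptors and 3 of 4 atypical receptors fell.

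**Figure D2:**
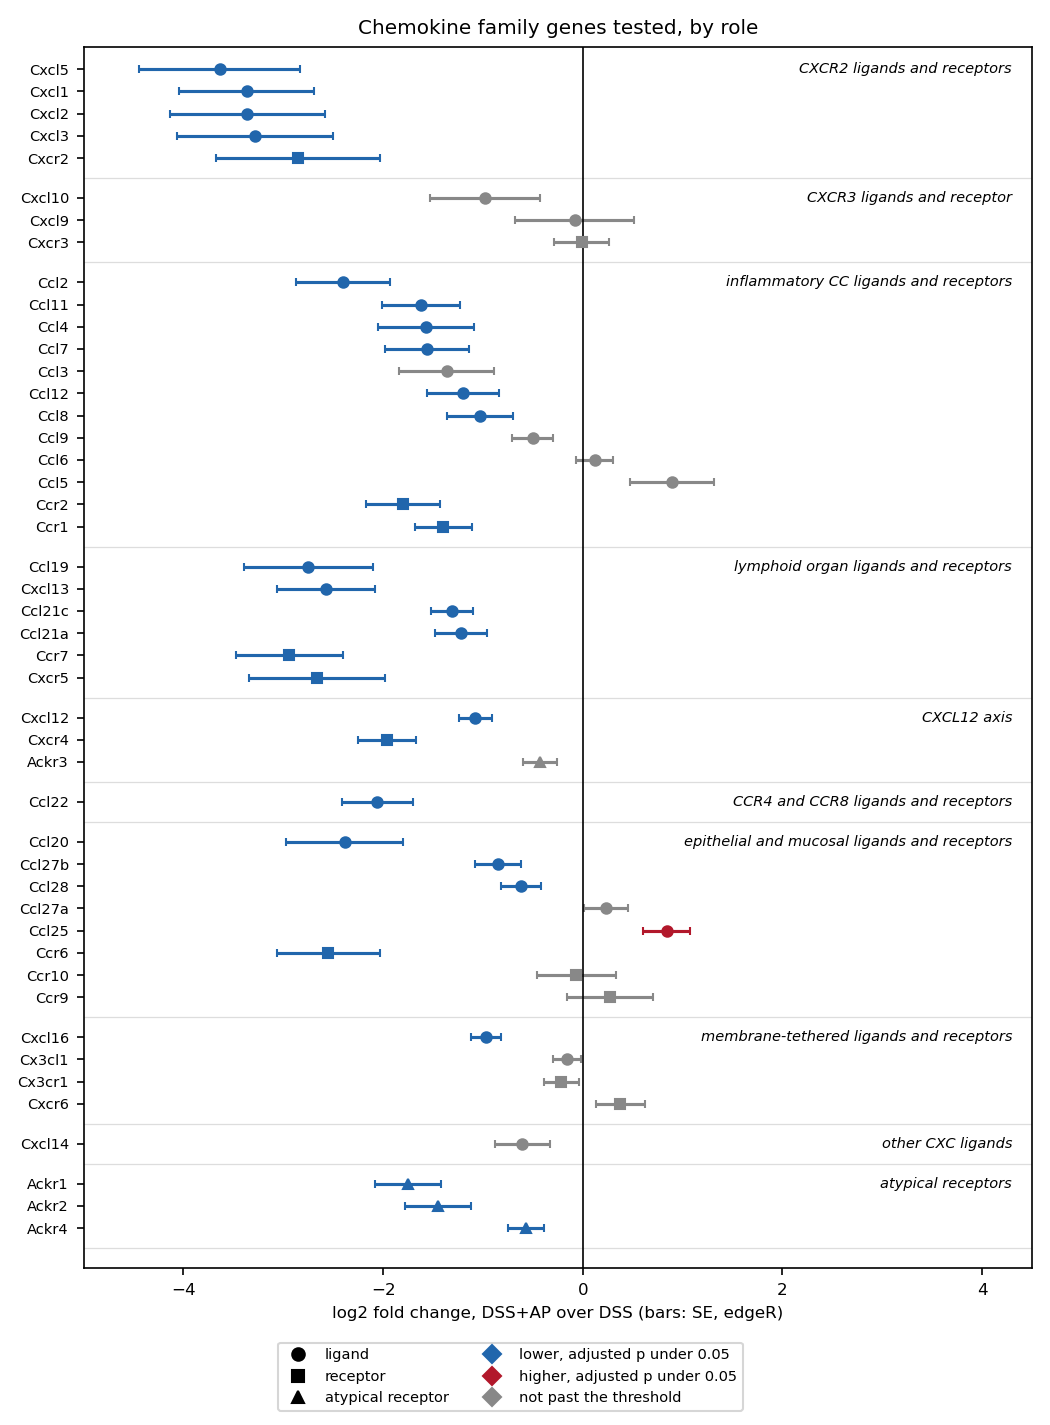
Log2 fold change (DSS+AP over DSS) of each tested member named in the text, with bars of 1 standard error, grouped by ligand and receptor system and blue for genes that fell, red for the one that rose and grey for those that did not pass the test. The 4 CXCR2 ligands sit farthest to the left, between -3.63 and -3.28, and Ccl25 is the red point to the right of 0.

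The number of members that fell depended on which libraries were used. It was 20 without DSS+AP replicate 1 and 23 without DSS replicate 4, the library with acinar transcripts, and 19 of the 31 calls held whichever single library was left out. Within the DSS group, replicate 1 was highest for 15 of the 31 members that fell and replicate 4 for 13, whereas replicate 2 was lowest for 22. In DSS+AP, replicate 2 was highest for 17 and replicate 3 lowest for 17. Over these 31 members the median coefficient of variation was 46.4% in DSS and 26.6% in DSS+AP.

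The CXCR2 system recruits neutrophils. Its 4 ligands among the members, Cxcl1, Cxcl2, Cxcl3 and Cxcl5, all fell, by 9.73- to 12.4-fold. Their receptor Cxcr2 fell by 7.23-fold. The 4 ligand genes are neighbours on chromosome 5. Cxcl1 (chr5:90891245-90893121), a keratinocyte-derived chemokine induced early in inflammation, had 41.1, 10.3, 8.92 and 20.6 CPM in DSS replicates 1 to 4 and 1.26, 3.79, 0.372 and 2.35 CPM in DSS+AP replicates 1 to 4. No DSS+AP library reached the lowest DSS library, and the mean went from 20.2 ± 14.8 to 1.95 ± 1.48 CPM (SD, n = 4 each), which is -3.37 ± 0.68 as a log2 fold change (edgeR standard error, adjusted p = 0.00827). Cxcl5 (chr5:90759298-90761625), which epithelial and stromal cells make, had 98.2, 14.8, 26.1 and 36.4 CPM in DSS and 1.80, 8.70, 0.744 and 2.79 CPM in DSS+AP. Its groups did not overlap either, and it fell 12.4-fold (log2 -3.63 ± 0.81, edgeR adjusted p = 0.0122).

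Cxcl2 (chr5:90903899-90905938), made by macrophages and neutrophils among others, had 41.2, 10.1, 5.89 and 7.67 CPM in DSS and 0.840, 2.102, 0.434 and 2.91 CPM in DSS+AP. Cxcl3 (chr5:90786101-90788093), its close relative, had 17.2, 3.18, 3.72 and 2.98 CPM in DSS and 0.360, 1.46, 0.186 and 0.743 CPM in DSS+AP. In both genes DSS replicate 1 stood apart above the other 3 DSS libraries, and all DSS+AP libraries were below all DSS libraries. The log2 fold changes were -3.36 ± 0.78 for Cxcl2 (edgeR adjusted p = 0.0134) and -3.28 ± 0.78 for Cxcl3 (edgeR adjusted p = 0.0149). Without DSS replicate 1 the falls of Cxcl1, Cxcl2, Cxcl3 and Cxcl5 were smaller, at -2.72, -2.30, -2.21 and -2.82 on the log2 scale, and each still passed the test. The falls of Ccr7 and Ccl19, genes of lymphoid tissue, were then -2.74 and -2.53, in the range of those of the CXCR2 ligands. The standard error for Ccr7 was 0.57 in that fit, and the genes were not tested against each other. Without DSS+AP replicate 2, the library with the most Cxcl1, Cxcl3 and Cxcl5 in its group, Cxcl3 stood at -3.96 and Cxcl5 at -4.62.

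Cxcr2 (chr1:74153994-74161246), the receptor for all 4 ligands on neutrophils, had 20.8, 3.59, 2.87 and 7.61 CPM in DSS and 0.300, 2.57, 0.310 and 1.61 CPM in DSS+AP. The groups did not overlap, but DSS+AP replicate 2 came close to the lowest DSS library. The log2 fold change was -2.85 ± 0.82 (edgeR adjusted p = 0.0306). This call was lost when DSS replicate 1 or 4, or DSS+AP replicate 1, 3 or 4, was left out, with adjusted p values of up to 0.0804. It was -1.91 without DSS replicate 1 and -3.55 without DSS+AP replicate 2. Cxcr1, the second receptor of this system, had 18 counts over the 4 DSS libraries and 1 over the 4 DSS+AP libraries and was not tested. Of 8 neutrophil markers 7 fell in DSS+AP and 1, Cd177, rose by 0.97 ± 0.27 on the log2 scale (edgeR adjusted p = 0.0265). The summed list ran from 179 to 420 CPM in DSS and from 209 to 489 CPM in DSS+AP, and Cd177 alone averaged 134 CPM in DSS and 262 in DSS+AP. Without Cd177 it ran from 51.2 to 302 CPM in DSS and from 8.93 to 39.2 CPM in DSS+AP. DSS replicate 1 was highest and DSS replicate 3 lowest in DSS, as for Cxcr2, Cxcl1 and Cxcl2. In Cxcl3 and Cxcl5 another DSS library was lowest. The part of these markers in the falls was not tested.

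**Figure D3:**
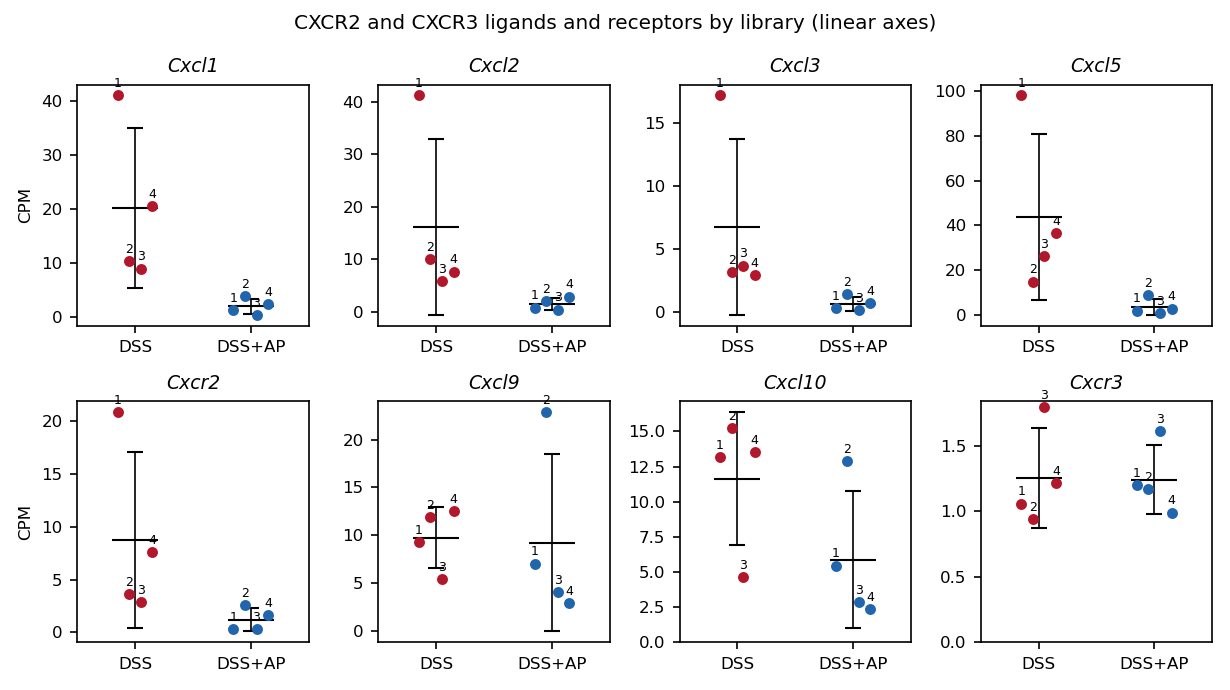
CPM of the CXCR2 ligands and receptor and of the CXCR3 ligands and receptor in each library on linear axes, with 1 numbered point per library and the mean ± SD (n = 4) as bars. For the CXCR2 genes the DSS+AP points lie below all DSS points, and for Cxcl9, Cxcl10 and Cxcr3 the groups overlap.

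The CXCR3 system, which guides interferon-exposed T cells and natural killer cells, did not pass the test in any of its 3 genes. Cxcl9 (chr5:92321331-92328079), an interferon-gamma target, had 9.25, 11.9, 5.39 and 12.5 CPM in DSS and 7.02, 22.9, 4.03 and 2.91 CPM in DSS+AP. DSS+AP replicate 2 held the highest level of all 8 libraries and DSS+AP replicate 4 the lowest. The log2 difference was -0.08 ± 0.60 (edgeR adjusted p = 0.933), and -1.06 without DSS+AP replicate 2 (edgeR adjusted p = 0.0648). Cxcl10 (chr5:92346638-92348889), also interferon-induced, had 13.2, 15.2, 4.65 and 13.5 CPM in DSS and 5.46, 12.9, 2.85 and 2.35 CPM in DSS+AP. Its groups overlapped, with a log2 difference of -0.98 ± 0.55 (edgeR adjusted p = 0.205), which became -1.70 and passed the test without DSS+AP replicate 2 (edgeR adjusted p = 0.0260). The receptor Cxcr3 had 1.06, 0.942, 1.80 and 1.22 CPM in DSS and 1.2, 1.17, 1.61 and 0.991 CPM in DSS+AP. The groups overlapped, with a log2 difference of -0.01 ± 0.27 (edgeR adjusted p = 0.984). The sign of that difference turned with RLE size factors (0.010) but not with upper quartile factors (-0.034). Cxcl9 and Cxcl10 share a cluster of chromosome 5 with the CXCR2 ligands. A cluster is a run of members with gaps of at most 2000000 bases. Whether genes of the cluster differ in their change was not tested. Of the 6 tested genes of that cluster, 4 fell and the other two are Cxcl9 and Cxcl10. Among 8 T cell markers 1 fell (Cd4) and 1 rose (Cd8a), and the summed list ran from 34.4 to 46.6 CPM in DSS and from 32.6 to 51.4 CPM in DSS+AP.

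The inflammatory CC chemokines, which act on CCR1, CCR2, CCR3 and related receptors, draw monocytes, macrophages, eosinophils and T cells. Of 10 tested ligands of this system 6 fell and none rose: Ccl2, Ccl4, Ccl7, Ccl8, Ccl11 and Ccl12. Their receptors Ccr1 and Ccr2 fell too. Ccl2 (chr11:82035577-82037452), the main monocyte attractant, had 38.5, 14.8, 8.49 and 20.2 CPM in DSS and 3.96, 5.95, 2.23 and 3.35 CPM in DSS+AP. The groups did not overlap, and the fall was 5.28-fold (log2 -2.40 ± 0.47, edgeR adjusted p = 0.00772). Ccr2 (chr9:124101918-124109140), its receptor on inflammatory monocytes, had 43.4, 12.5, 24.4 and 42.5 CPM in DSS and 9.60, 11.3, 7.32 and 7.0 CPM in DSS+AP. All DSS+AP libraries were below all DSS libraries, DSS replicate 2 only narrowly above them, and the log2 fold change was -1.80 ± 0.37 (edgeR adjusted p = 0.00909).

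Ccr1 (chr9:123962126-123968692), a receptor of monocytes and neutrophils, had 44.6, 15.8, 28.2 and 37.3 CPM in DSS and 12.5, 12.8, 9.42 and 13.1 CPM in DSS+AP. It separated the groups in the same way, with DSS replicate 2 nearest to DSS+AP, and fell by 1.399 ± 0.29 on the log2 scale (edgeR adjusted p = 0.00864). Ccl11 (chr11:82057832-82062955), eotaxin, which draws eosinophils, had 114, 30.6, 37.5 and 63.6 CPM in DSS and 21.5, 25.3, 17.4 and 15.8 CPM in DSS+AP. The groups were apart, and the log2 fold change of -1.62 ± 0.39 (edgeR adjusted p = 0.0157) was lost without DSS+AP replicate 3 (edgeR adjusted p = 0.0507). Macrophage markers fell with these genes, 8 of 9, and their summed level ran from 391 to 829 CPM in DSS and from 323 to 370 CPM in DSS+AP. Its part in the falls of the receptors was not tested.

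The other 4 ligands that fell were closer to the threshold. Log2 fold changes were -1.56 ± 0.42 for Ccl7, a monocyte attractant (edgeR adjusted p = 0.0239), -1.201 ± 0.36 for Ccl12, a mouse relative of Ccl2 (edgeR adjusted p = 0.0349), and -1.57 ± 0.48 for Ccl4, an attractant of macrophages and T cells (edgeR adjusted p = 0.0363). For Ccl8, which attracts monocytes and T cells, it was -1.03 ± 0.33 with overlapping groups (edgeR adjusted p = 0.0429). Each of these 4 calls was lost without DSS+AP replicate 1, 3 or 4. They were also lost without DSS replicate 4 for Ccl7, Ccl8 and Ccl12, without DSS replicate 1 for Ccl4, Ccl8 and Ccl12, without DSS replicate 3 for Ccl8 and Ccl12 and without DSS replicate 2 for Ccl4, with adjusted p values of up to 0.118.

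A group of ligands of the same receptors did not pass the test. Ccl3, the neighbour of Ccl4, went from 2.03 ± 1.16 to 0.792 ± 0.422 CPM (SD, n = 4 each; log2 -1.36 ± 0.48, edgeR adjusted p = 0.0593). It passed the test without DSS replicate 3 (edgeR adjusted p = 0.0359), without DSS+AP replicate 4 (edgeR adjusted p = 0.0378) and with DESeq2 (adjusted p = 0.0337). Ccl9, a CCR1 ligand, went from 68.0 ± 17.5 to 48.0 ± 11.2 CPM (log2 -0.50 ± 0.21, edgeR adjusted p = 0.0993). It passed without DSS replicate 2 (edgeR adjusted p = 0.0439), without DSS+AP replicate 2 (edgeR adjusted p = 0.0319) and with limma-voom (adjusted p = 0.0151). Ccl6, another CCR1 ligand, had 377 ± 58.5 CPM in DSS and 409 ± 99.5 in DSS+AP (log2 0.12 ± 0.19, edgeR adjusted p = 0.662). Ccl5, made by T cells and natural killer cells, had 2.84, 5.47, 9.36 and 3.53 CPM in DSS and 13.4, 4.79, 12.4 and 8.80 CPM in DSS+AP. It was highest in 2 of the DSS+AP libraries, replicates 1 and 3, but the groups overlapped (log2 0.90 ± 0.42, edgeR adjusted p = 0.136), and it passed the test when DSS replicate 3 was left out (edgeR adjusted p = 0.0438). In the cluster on chromosome 11 that holds 11 chemokine genes, 6 of the 10 tested fell, and Ccl3, Ccl5, Ccl6 and Ccl9 did not pass. Ccl24, an eosinophil attractant, had 30 counts over the DSS libraries and 7 over the DSS+AP libraries, the eosinophil receptor Ccr3 had 69 and 20, and Ccr1l1 had 4 and 0, and none of them was tested. Among eosinophil and mast cell markers 1 of 5 tested fell and none rose, and Epx was at 0 in all DSS libraries. Their sums ran from 78.1 to 116 CPM in DSS and from 106 to 138 CPM in DSS+AP. Most of each sum was Kit, which averaged 84.8 of 97.2 CPM in DSS and 117 of 127 CPM in DSS+AP. The sum therefore says little about the other markers.

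All 6 genes of the lymphoid system fell. This system comprises the ligands that organise lymphoid follicles and the receptors that lymphocytes and dendritic cells use to enter them. Cxcl13 (chr5:95956939-95961068), which draws B cells into follicles, had 81.0, 12.5, 54.5 and 60.5 CPM in DSS and 9.0, 5.78, 9.11 and 11.2 CPM in DSS+AP. DSS replicate 2 was far below the other 3 DSS libraries and just above the DSS+AP libraries, and the fall was 5.95-fold (log2 -2.57 ± 0.49, edgeR adjusted p = 0.00705). Its receptor on B cells, Cxcr5 (chr9:44511787-44526444), had 4.79, 1.0, 1.61 and 9.19 CPM in DSS and 0.600, 0.642, 0.558 and 0.805 CPM in DSS+AP. The DSS libraries were far apart and the DSS+AP libraries close together, and the log2 fold change was -2.66 ± 0.68 (edgeR adjusted p = 0.0199). The Cxcr5 call was lost without DSS+AP replicate 1 or 3 (edgeR adjusted p = 0.0555 and 0.0583), and its fall was smaller, at -1.92, without DSS replicate 4.

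Ccr7 (chr11:99144199-99155077), the receptor that takes naive T cells and mature dendritic cells into lymphoid tissue, had 10.98, 2.71, 8.74 and 10.7 CPM in DSS and 1.32, 1.34, 0.248 and 1.36 CPM in DSS+AP. The groups were apart, and the fall was 7.67-fold (log2 -2.94 ± 0.54, edgeR adjusted p = 0.00602). Ccl21a (chr4:42772860-42773991), a ligand of Ccr7 made by lymphatic endothelium and follicle stroma, had 91.0, 89.6, 174 and 186 CPM in DSS and 68.4, 62.5, 48.0 and 53.6 CPM in DSS+AP. All DSS+AP libraries were lower, and the log2 fold change was smaller than those of Ccr7 and Cxcl13, at -1.22 ± 0.26 (edgeR adjusted p = 0.0103). Ccl21c, whose transcript is almost identical, had 10.5, 8.64, 16.1 and 15.3 CPM in DSS and 5.78, 4.72, 4.61 and 5.27 CPM in DSS+AP (log2 -1.31 ± 0.21, edgeR adjusted p = 0.00447). Both had fractional counts in all 8 libraries, so reads were split between near copies and the levels of each are uncertain. Ccl19, the second ligand of Ccr7, fell from 2.07 ± 1.29 to 0.315 ± 0.270 CPM (SD, n = 4 each; log2 -2.75 ± 0.65, edgeR adjusted p = 0.0142), and its log2 fold change was -3.60 without DSS+AP replicate 2. It too had fractional counts in all 8 libraries, and its 4 DSS+AP libraries together held 21.1 counts.

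B cell markers and the tested lymphoid tissue organising genes fell with these genes. Of 8 T cell markers 1 fell and 1 rose, and none of 4 plasma cell markers passed the test. All 7 B cell markers fell, with summed levels from 13.2 to 110 CPM in DSS and from 5.60 to 13.3 CPM in DSS+AP (p = 0.0571, two-sided exact permutation test, and 0.0914 adjusted over the 16 lists). In DSS the order of the libraries by B cell markers was replicate 4, then 1, 3 and 2. Cxcr5 and Ccl19 had the same order, and Cxcl13, Ccr7, Ccl21a and Ccl21c did not. Of 5 lymphoid tissue organising genes the 3 tested (Madcam1, Ltb and Tnfrsf13c) fell, with sums from 6.89 to 26.2 CPM in DSS and from 4.40 to 5.49 CPM in DSS+AP, and Glycam1 was at 0 in all DSS+AP libraries. The lymphatic endothelial sum ran from 80.1 to 180 CPM in DSS and from 50.7 to 71.9 CPM in DSS+AP. How many follicles each piece of colon held was not given, and the part of these markers in the falls was not tested.

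**Figure D4:**
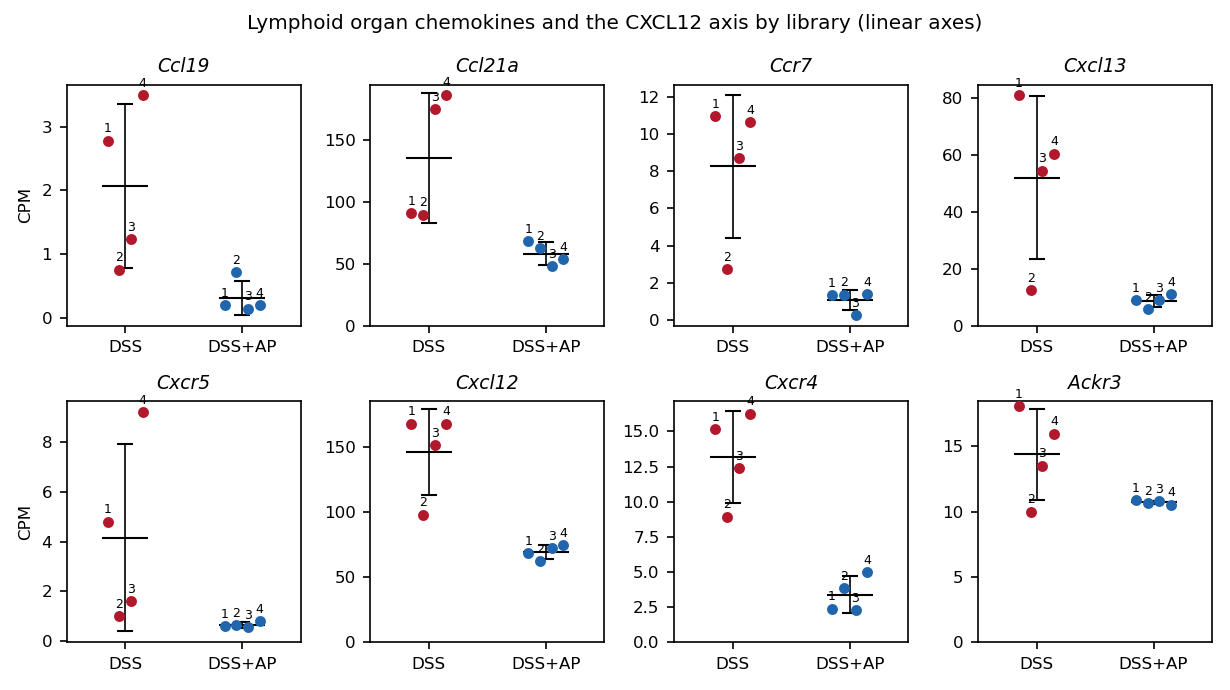
CPM of 5 lymphoid ligands and receptors and of Cxcl12, Cxcr4 and Ackr3 in each library on linear axes, with 1 numbered point per library and the mean ± SD (n = 4) as bars. DSS+AP points lie below all DSS points for every gene shown except Ackr3.

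The CXCL12 system holds stromal CXCL12, which retains leukocytes and progenitors, its signalling receptor CXCR4 and the atypical receptor ACKR3, which removes it. Ligand and receptor both fell. Cxcl12 (chr6:117168535-117181368) had 168, 97.9, 151 and 167 CPM in DSS and 68.3, 62.1, 72.1 and 74.7 CPM in DSS+AP. The groups did not overlap, and the fall was 2.11-fold (log2 -1.08 ± 0.16, edgeR adjusted p = 0.00384). Cxcr4 (chr1:128588199-128592299) had 15.2, 8.95, 12.4 and 16.3 CPM in DSS and 2.40, 3.85, 2.29 and 5.02 CPM in DSS+AP. It fell by 3.88-fold (log2 -1.96 ± 0.29, edgeR adjusted p = 0.00369), with no overlap between groups. Ackr3 (chr1:90203980-90215724) had 18.1, 10.01, 13.5 and 15.95 CPM in DSS and 10.9, 10.6, 10.8 and 10.5 CPM in DSS+AP. Its DSS+AP libraries were close together and DSS replicate 2 lay below them, so the groups overlapped (log2 -0.43 ± 0.17, edgeR adjusted p = 0.0906). It passed the test without DSS replicate 2 (edgeR adjusted p = 0.0200). All 7 fibroblast markers fell too, with sums from 2356 to 5475 CPM in DSS and from 1260 to 1950 CPM in DSS+AP, and their part in the fall of Cxcl12 was not tested.

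CCR4 and CCR8 guide regulatory and type-2 T cells, and their ligands come mainly from dendritic cells and macrophages. Of this system 1 of 5 genes could be tested. Ccl22 (chr8:94745684-94751388) had 6.13, 2.41, 7.81 and 7.37 CPM in DSS and 1.5, 1.69, 1.12 and 1.36 CPM in DSS+AP. All DSS+AP libraries were lower, and the fall was 4.16-fold (log2 -2.06 ± 0.36, edgeR adjusted p = 0.00524). Over the 4 libraries of each group Ccl17 had 27 counts in DSS and 13 in DSS+AP, Ccr4 had 54 and 30, Ccl1 had 2 and 1, and Ccr8 had 5 and 4, and none of these was tested. The dendritic cell markers, of which 4 of 6 fell, summed to between 30.4 and 55.5 CPM in DSS and between 19.2 and 19.6 CPM in DSS+AP, and their part in the fall of Ccl22 was not tested.

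The epithelial and mucosal system, whose ligands come largely from gut and skin epithelium, was mixed: 4 of its 8 genes fell, 1 rose and 3 did not pass. Ccl20 (chr1:83116766-83119167), made by the epithelium over follicles, had 4.12, 2.06, 2.35 and 9.74 CPM in DSS and 0.600, 0.409, 1.18 and 1.30 CPM in DSS+AP. Its receptor Ccr6 (chr17:8236041-8258519), carried by B cells, dendritic cells and interleukin-17-producing T cells, had 5.68, 1.94, 2.91 and 8.34 CPM in DSS and 1.14, 0.701, 0.372 and 0.991 CPM in DSS+AP. In both genes DSS replicate 4 was highest and no DSS+AP library reached a DSS library. The log2 fold changes were -2.39 ± 0.58 for Ccl20 (edgeR adjusted p = 0.0165) and -2.55 ± 0.52 for Ccr6 (edgeR adjusted p = 0.00841). Without DSS replicate 4 the fall of Ccl20 was -1.71, and without DSS+AP replicate 1 its call was lost (edgeR adjusted p = 0.0526).

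Ccl25 (chr8:4325205-4360020), which draws CCR9-bearing lymphocytes to the intestine, was the one member that rose. It had 1.73, 2.94, 2.35 and 1.95 CPM in DSS and 4.80, 2.80, 4.34 and 4.15 CPM in DSS+AP. DSS+AP replicate 2 lay below DSS replicate 2, and the other 3 DSS+AP libraries lay above all DSS libraries (log2 0.84 ± 0.24, edgeR adjusted p = 0.0285). The call was lost in 6 of 8 fits that left out 1 library, those without DSS replicate 1, 3 or 4 or DSS+AP replicate 1, 3 or 4, with adjusted p values of up to 0.0798. Its receptor Ccr9 had 0.975 ± 0.365 CPM in DSS and 1.18 ± 0.574 in DSS+AP (SD, n = 4 each; log2 0.27 ± 0.43, edgeR adjusted p = 0.657). Of the exon bases of Ccr9 19.0% also lie in genes of the other strand, so its counts are uncertain. Of 8 colon epithelial markers 3 rose and the summed level ran from 13209 to 25609 CPM in DSS and from 23722 to 36848 CPM in DSS+AP. Most of the mean sum was Muc2, which did not pass the test. It averaged 12566 of 19331 CPM in DSS and 17946 of 30512 CPM in DSS+AP. The part of the epithelial markers in the rise of Ccl25 was not tested.

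Ccl28, an epithelial ligand for plasma cells, fell from 114 ± 28.8 to 74.3 ± 15.7 CPM (SD, n = 4 each; log2 -0.62 ± 0.20, edgeR adjusted p = 0.0462). Its groups overlapped, and the call was lost in 6 of 8 fits that left out 1 library, those without DSS replicate 2, 3 or 4 or DSS+AP replicate 1, 3 or 4, with adjusted p values of up to 0.126. Its receptor Ccr10 had 1.97 ± 0.981 CPM in DSS and 1.88 ± 0.719 in DSS+AP (log2 -0.06 ± 0.40, edgeR adjusted p = 0.919). Ccl27b had 2.61, 3.76, 4.96 and 4.17 CPM in DSS and 2.25, 1.72, 2.02 and 2.50 CPM in DSS+AP. It fell by 0.85 ± 0.23 on the log2 scale (edgeR adjusted p = 0.0236), a call lost in 5 of 8 fits that left out 1 library (DSS replicate 3 or 4, or DSS+AP replicate 1, 2 or 3). Ccl27a, its near copy, had 1.27 ± 0.310 and 1.47 ± 0.0601 CPM (log2 0.23 ± 0.22, edgeR adjusted p = 0.440), and both had fractional counts in all 8 libraries, so the split of reads between them is uncertain.

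CXCL16 and CX3CL1 are made as membrane-bound proteins with the chemokine on a stalk, from which proteases can release it. Cxcl16 (chr11:70454389-70459984) had 47.7, 30.6, 41.2 and 52.4 CPM in DSS and 21.7, 22.8, 22.01 and 21.5 CPM in DSS+AP. The DSS+AP libraries lay close together and below all DSS libraries (log2 -0.97 ± 0.15, edgeR adjusted p = 0.00409). Because 18.3% of its exon bases also lie in Zmynd15 on the other strand, and strandedness of the counting is not given, its counts are uncertain. Its receptor Cxcr6 (chr9:123806477-123811754), on T cells and innate lymphoid cells, had 1.62, 2.30, 2.91 and 2.44 CPM in DSS and 3.66, 2.102, 3.10 and 3.16 CPM in DSS+AP, with overlapping groups (log2 0.38 ± 0.24, edgeR adjusted p = 0.262). Cx3cl1 (chr8:94772180-94782427) had 85.5, 108, 134 and 111 CPM in DSS and 94.1, 85.9, 101 and 113 CPM in DSS+AP. Its receptor Cx3cr1 (chr9:120048683-120068296), carried by resident macrophages, had 13.5, 12.2, 19.0 and 20.0 CPM in DSS and 11.8, 14.4, 14.7 and 14.9 CPM in DSS+AP. Neither passed the test, with log2 differences of -0.16 ± 0.14 for Cx3cl1 (edgeR adjusted p = 0.414) and -0.21 ± 0.18 for Cx3cr1 (edgeR adjusted p = 0.379). Ccl22 and Cx3cl1 are neighbours on chromosome 8, and Cx3cr1 lies on chromosome 9, as do Ccr1 and Ccr2, which fell.

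Of the CXC ligands of other or uncertain receptors, Cxcl14, made by epithelium and fibroblasts, was the one tested. It had 12.9, 7.36, 11.2 and 12.5 CPM in DSS and 5.58, 7.06, 11.2 and 5.08 CPM in DSS+AP, with overlapping groups (log2 -0.60 ± 0.28, edgeR adjusted p = 0.128). It passed the test without DSS+AP replicate 3 (edgeR adjusted p = 0.0354). Cxcl17 had 9 counts over the DSS libraries and 5 over the DSS+AP libraries, and Cxcl15, a lung chemokine, had none in any library.

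All 3 of the other atypical receptors fell. Ackr2 (chr9:121898355-121911075), a scavenger of inflammatory CC chemokines, had 4.29, 2.53, 4.03 and 6.88 CPM in DSS and 2.099, 1.63, 1.67 and 1.05 CPM in DSS+AP. The groups were apart (log2 -1.45 ± 0.33, edgeR adjusted p = 0.0126). Ackr1 (chr1:173331886-173333503), which carries chemokines across venules, had 3.66, 1.61, 2.01 and 3.57 CPM in DSS and 0.809, 0.661, 0.875 and 0.951 CPM in DSS+AP (log2 -1.75 ± 0.33, edgeR adjusted p = 0.00667). Of its exon bases 25.7% lie in Cadm3 on the same strand and its counts were fractional in all libraries, so its level is uncertain. Ackr4 (chr9:104097682-104126643), which removes CCL19, CCL21 and CCL25, had 6.41, 6.65, 7.56 and 9.56 CPM in DSS and 5.34, 6.07, 4.09 and 4.83 CPM in DSS+AP. Its groups were close but apart (log2 -0.57 ± 0.18, edgeR adjusted p = 0.0449), and the call was lost in 7 of 8 fits that left out 1 library, in all but the one without DSS+AP replicate 2. The 5 blood endothelial markers fell as well, with sums from 138 to 229 CPM in DSS and from 80.5 to 99.9 CPM in DSS+AP, and their part in the fall of Ackr1 was not tested.

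Ligands were set beside their receptors in 26 pairs of tested genes. The pairs are not all that are known, several share a partner, and the tally depends on which were taken. In 13 pairs both partners fell, in 4 pairs (Cxcl12 with Ackr3, Cxcl16 with Cxcr6, and Ccl27b and Ccl28 with Ccr10) the ligand alone passed, downward, and in 4 pairs (Ccl3, Ccl5, Ccl6 and Ccl9, each with Ccr1) the receptor alone passed, downward. In 1 pair, Ccl25 with Ccr9, the ligand alone passed, upward, and in 4 pairs neither partner did. Among the 13 pairs, those with Cxcr2, Ccr7, Cxcr5 or Ccr6 held a member that entered the test through the group where it is high. Of all genes tested 20.4% fell, and no such share was taken over pairs, so the tally is a description only. The log2 ratio of ligand to receptor within each library is given as a description: exact two-sided permutation tests of its shift between groups gave no adjusted p below 0.106 over the 26 pairs, with 0.0286 as the smallest unadjusted p. For Cxcl13 and Cxcr5 it was 3.81 ± 0.956 in DSS and 3.50 ± 0.364 in DSS+AP (SD, n = 4 each), and for Ccl20 and Ccr6 it was -0.11 ± 0.314 and 0.08 ± 1.02, differences smaller than the SDs. For Cxcl12 and Cxcr4 it went from 3.46 ± 0.10 to 4.37 ± 0.533, and for Ccl21a and Ccr7 from 4.11 ± 0.807 to 5.80 ± 0.83 with the receptor further down than the ligand. For Ccl5 and Ccr1 it went from -2.59 ± 1.23 to -0.37 ± 0.795, with Ccr1 lower and Ccl5 at a higher mean that did not pass the test. For Cxcl16 and Cxcr6 it went the opposite way, from 4.15 ± 0.527 to 2.85 ± 0.362, and likewise for Cxcl12 and Ackr3, from 3.33 ± 0.117 to 2.68 ± 0.120.

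**Figure D5:**
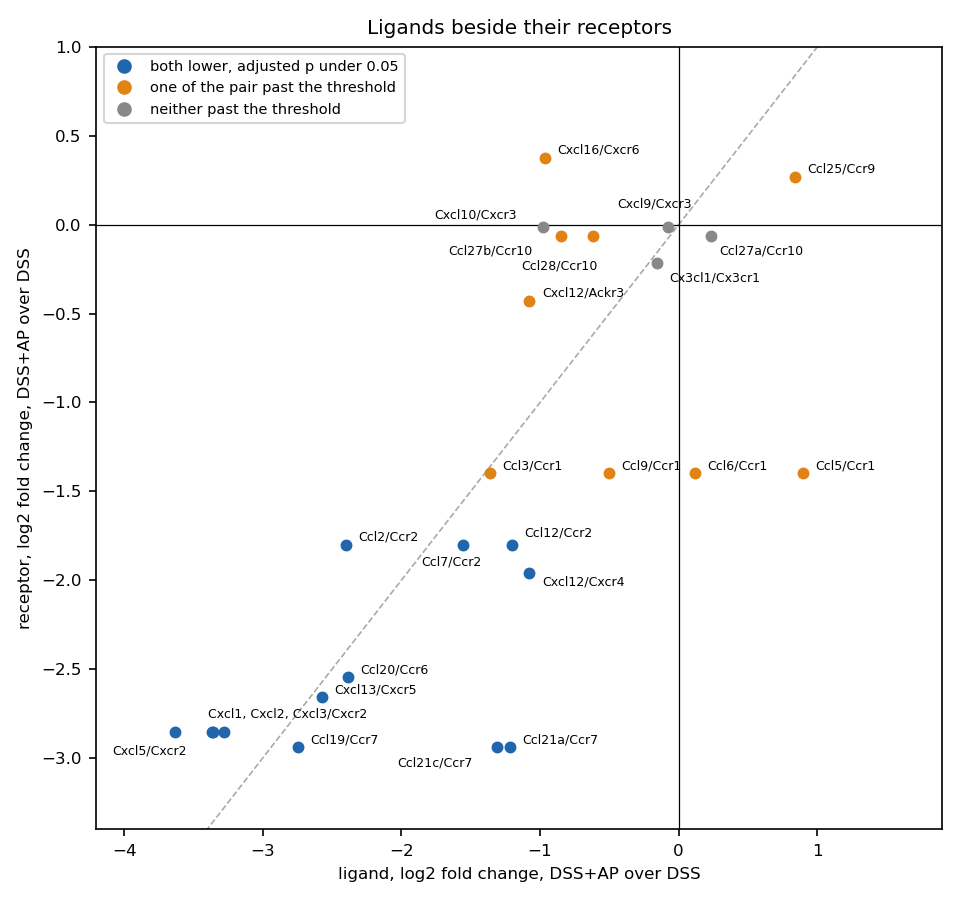
Log2 fold change (DSS+AP over DSS) of each ligand against that of its receptor for the 26 pairs, with 1 point per pair, blue where both fell, orange where 1 partner passed the test and grey where neither did, and a dashed diagonal of equal change. Most points lie in the lower left, where both partners are lower, with the CXCR2 pairs at the far end, and the points of Ccl5, Ccl6, Ccl25 and Ccl27a lie to the right of 0.

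Levels of different genes were compared per kilobase of exon, for the 56 members with a known exon length. Ccl6 was the most abundant member in both groups (210 CPM per kilobase in DSS and 228 in DSS+AP), followed by Ccl21a (155 and 66.8) and Ccl8 (114 and 55.8). The order below them changed. Cxcl13 went from rank 5 to 10, Cxcl5 from 8 to 22, Cxcl1 from 15 to 28 and Cxcl2 from 17 to 32, while Ccl5 went from rank 20 to 8. Cx3cl1, at 27.9 and 25.1 CPM per kilobase, went from rank 6 to 4. Among receptors Ccr1 was the most abundant in both groups (11.1 and 4.21 CPM per kilobase), and Cxcr2 (2.86 and 0.393) and Ccr7 (4.18 and 0.540) ranked 41 and 39 in DSS+AP. Neighbours in these orders were not tested against each other.

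Other genes of the pathway were described from 3 lists. Of all genes tested, 20.4% fell and 8.84% rose (edgeR adjusted p under 0.05). Of 6 chemokine family genes with other symbols, 5 were tested and 3 fell: Cmklr1, the chemerin receptor (log2 -1.13 ± 0.24, edgeR adjusted p = 0.00922), Pf4, a platelet and macrophage CXC chemokine (log2 -0.82 ± 0.20, edgeR adjusted p = 0.0156), and Ccrl2, a chemerin-binding atypical receptor (log2 -0.63 ± 0.16, edgeR adjusted p = 0.0202). Xcl1 and Xcr1, a ligand of T and natural killer cells and its dendritic cell receptor, did not pass, and Ppbp was not tested. Of 26 tested genes for receptor signalling and desensitisation 12 fell and none rose, with a median log2 fold change of -0.29. They included the G protein subunit Gng2 (-1.06 ± 0.17, edgeR adjusted p = 0.00413), the transcription factor Stat3 (-0.68 ± 0.13, 0.00598), Rgs16, which shortens G protein signals (-1.51 ± 0.31, 0.00840), and the receptor kinase Grk5 (-0.45 ± 0.09, 0.00947). Of 11 genes that process or present chemokines 6 fell and 1 rose. The riser was Dpp4, a protease that trims several chemokines, by 0.61 ± 0.11 on the log2 scale (edgeR adjusted p = 0.00577). Among those that fell were the heparan sulfate carriers Sdc4 (-0.43 ± 0.09, edgeR adjusted p = 0.00913) and Hspg2 (-0.68 ± 0.17, edgeR adjusted p = 0.0176) and the heparan sulfate enzyme Ndst1 (-0.37 ± 0.11, edgeR adjusted p = 0.0293).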

How the data were processed

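Colon RNA of 4 DSS and 4 DSS+AP mice was sequenced. The authors deposited estimated counts for each gene in each library, with no scaling to depth; 10.7% to 11.5% of a library's values had a fractional part. RSEM 1.2.8, HISAT2 2.1.0, Bowtie2 2.2.5 and build GRCm38.p6 appear in the submitters' processing notes, without their roles. Whether reads were counted by strand is not given in the sources used. Counts were rounded, filtered with filterByExpr (minimum count 10 in 4 libraries), scaled by TMM and modelled with edgeR 4.0.16 (R 4.3.3). The robust quasi-likelihood F test had no covariates, and Benjamini-Hochberg adjustment ran over 14578 genes with a threshold of 0.05. CPM values divide by TMM-scaled totals over the tested genes, and standard errors come from the estimate and its F statistic. Read splitting among near copies and unknown strand can move counts of genes that share sequence or overlap.

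Samples were grouped by title. Spearman correlations across genes between libraries of 1 group were 0.977 to 0.994, and those between groups 0.953 to 0.989. DSS replicate 2 correlated more with DSS+AP replicates 1 (0.9885) and 4 (0.9879) than with DSS replicates 1 (0.9827) and 4 (0.977), and no library was a copy of another. Each alternative (the replicate number as a block, other scaling factors or filters, non-robust estimation, DESeq2 1.42.0, limma-voom of limma 3.58.1, each library left out) was run over all genes.

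The members and lists were chosen with earlier results of these data known. Members are named, except 1 that is counted in the totals but not reported here, with values in every library for up to 4 per receptor system by smallest p and then by level. At most 4 genes of a pathway list are named, by smallest p, except that the list of 6 family genes with other symbols is named in full. The ligand-receptor pairs, the neutrophil sum without Cd177 and the library values of Cxcr2, Cxcr5 and Ccl5 were chosen after values were seen. A posterior Hox list was added later, with 0 of 5 tested genes past the threshold. Its sums were 52.4 to 195 CPM in DSS and 14.6 to 82.3 CPM in DSS+AP. It is among the 16 lists adjusted together and was used for no result on chemokines. The median log2 fold change of the 5 was -0.69. Hoxb13 averaged 52.9 ± 50.7 CPM in DSS and 3.53 ± 6.41 in DSS+AP (log2 -3.89 ± 1.36, edgeR adjusted p = 0.0608). The untested Hoxd13 averaged 9.39 ± 11.5 and 0.0305 ± 0.0352 CPM. The part of these differences in the results on chemokines was not tested. Coordinates and promoters come from RefSeq tables of GRCm38.p6, exon lengths and overlaps from GENCODE of that build. Ccl21c has no chromosome position there. Protein sequences were not used here. Promoters were not used here for Ccl2, Ccl4, Ccl5, Ccl7, Ccl11, Ccl21c, Ccl24, Ccr7, Ccr10, Cxcl5, Cxcl16, Cxcl17 and Cxcr5. Figures were drawn with matplotlib 3.10.9.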

Additional observations from a re-analysis of the deposited data

Results flagged for a closer look

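In 9 of 94 sets of 4 values (47 tested members in 2 groups), 1 library stood apart from the other 3 of its group by more than Dixon's 95% limit. Chance alone marks about 1 in 20 such sets. In DSS, replicate 1 stood high for Cxcl2 (41.2 CPM, others 5.89 to 10.1) and Cxcl3 (17.2 CPM, others 2.98 to 3.72), and replicate 4 stood high for Ccl27a (1.73 CPM, others 1.07 to 1.15). In DSS+AP, replicate 2 stood high for Ccl9 (64.7 CPM, others 41.4 to 44.0) and Ccl19 (0.717 CPM, others 0.143 to 0.201). DSS+AP replicate 3 stood low for Ccr7 (0.248 CPM, others 1.32 to 1.36) and Ccr1 (9.42 CPM, others 12.5 to 13.1). DSS+AP replicate 4 stood high for Ccl3 (1.42 CPM, others 0.558 to 0.600), and DSS+AP replicate 1 stood low for Cx3cr1 (11.8 CPM, others 14.4 to 14.9).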

How the results depend on the processing

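The count of members that fell was 31 and lay between 29 and 34 under other scaling factors, filters, DESeq2, limma-voom and no robust estimation. It was 18 with a replicate block and 20 to 32 when 1 library was left out. The count that rose was 1, with 0 under the replicate block and 0 to 1 when 1 library was left out (0 without DSS replicate 1 or 4 or DSS+AP replicate 1, 3 or 4; without DSS replicate 3 it was Ccl5 in place of Ccl25). Over all genes, 2974 fell, with 1967 under the block and 1985 to 3086 with 1 library left out. Genes that rose numbered 1288, with 582 under the block, 1950 without the count filter, 2107 with DESeq2, 2410 with limma-voom and 525 to 2101 with 1 library left out. The cause was not tested, and leaving out a library also leaves fewer samples. Deviations of same-numbered libraries from their group means correlated at -0.136, -0.452, 0.359 and -0.185 for numbers 1 to 4. The best partner of a DSS library had its own number for number 3 alone. With 4 libraries per group these values cannot exclude a pairing, and the titles name none. The log2 difference of Cxcr3 turned positive with RLE size factors (0.010), without the filter (0.064), under the block (0.005) and with DESeq2 (0.010), and that of Ccr10 without the filter (0.012). With 1 library left out Cxcl9 ran from -1.06 to 0.22, Cxcr3 from -0.15 to 0.21, Ccr10 from -0.33 to 0.30 and Ccr9 from -0.063 to 0.522. None of these differences passed the test. Ccl19 could not be tested with the filter of 1 CPM in 4 libraries. The count filter left 10 members untested. Without it 56 of 57 were fitted, all but Cxcl15, which had no counts.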
